A study of Saccharomyces cerevisiae with 36 samples.

Results

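The genes described here encode the proteasome of the budding yeast Saccharomyces cerevisiae together with RPN4, the transcription factor known to control them. They were taken by systematic name and number 33 of the 6717 features in the table, namely 7 genes of the alpha ring and 7 of the beta ring of the core particle, 6 ATPases and 4 non-ATPases of the base of the regulatory particle, 8 genes of its lid, and RPN4 itself. RNA was sequenced from 6 natural isolates, all labelled wild, in 3 media, with 2 libraries in each of the 18 groups and so 36 in total. Cells grew in SynH, a synthetic copy of lignocellulosic hydrolysate with its toxins, SynH -HTs, the hydrolysate without the toxins, and YPD, a rich laboratory medium. Y7568, YPS128 and UWO.S05.22-7 are labelled resistant to SynH, NCYC3290 is labelled as having medium resistance, and NCYC361 and K11 are labelled sensitive. All groups were collected in log phase at an optical density near 0.5 after 3 generations in the medium, and the replicates are described as biological samples taken on different days. The comparisons ask how expression of the proteasome differs with the toxins, with the base medium and among the strains.

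The proteasome is the protease that degrades proteins tagged with ubiquitin. Its core particle is a barrel of stacked rings whose beta subunits cut peptide bonds, and the regulatory particle recognises ubiquitin, removes it, and unfolds the substrate with a ring of ATPases. In S. cerevisiae the genes of both particles are known targets of Rpn4, a short-lived activator that binds an element upstream of them and is itself degraded by the proteasome, so that the pathway forms a feedback loop. The transcription factors Pdr1, Pdr3, Yap1 and Hsf1, which act in drug, oxidative and heat stress, are known to act on RPN4.

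The letters GGTGGCAAA, the proteasome-associated control element that Rpn4 is known to bind, were searched on both strands in the 500 bases before the start codon. They occurred at 27 of the 32 subunit genes, 84.4%, and at 99 of the 6008 nuclear protein-coding genes, 1.65%. All 6 ATPase genes held them, as did 6 of 7 genes of the alpha ring, 6 of 7 of the beta ring, 7 of 8 of the lid and 2 of the 4 base non-ATPases. The matches began 84 to 183 bases before the start codon, with a median of 120, and 19 lay on the strand of the gene and 8 on the opposite strand. PRE5, PUP1, RPN10, RPN13, RPN8 and RPN4 had no exact match in this window. The 7 stretches printed here belong to the subunit genes that passed a test in 1 of the 3 medium comparisons and hold the element. The sequences and positions are those of the RefSeq assembly R64, and the capitals mark the element. The upstream sequences of the 6 strains themselves were not read, here or for RPN4.
PRE3, chrX:435034-435064, plus strand: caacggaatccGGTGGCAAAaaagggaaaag
PRE8, chrXIII:86840-86870, minus strand: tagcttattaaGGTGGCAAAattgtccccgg
PRE4, chrVI:249958-249988, plus strand: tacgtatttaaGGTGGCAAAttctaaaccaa
RPT1, chrXI:174047-174077, minus strand: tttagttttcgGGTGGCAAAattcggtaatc
PRE1, chrV:177682-177712, plus strand: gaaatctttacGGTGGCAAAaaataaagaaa
PRE2, chrXVI:732183-732213, plus strand: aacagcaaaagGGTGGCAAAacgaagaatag
PUP2, chrVII:999225-999255, minus strand: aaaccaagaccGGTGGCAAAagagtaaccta

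The region before RPN4 (YDL020C, chromosome IV, 415113 to 416708, minus strand) was searched for elements of the stress regulators. All letters were searched on both strands of the 500 bases before the start codon. TCCGTGGA, or TCCACGGA on the other strand, is a form of the element known to bind Pdr1 and Pdr3. They occurred at 2 places before RPN4, starting 442 and 399 bases before the start codon, and within 500 bases of 1.05% of all genes. The other form, TCCGCGGA, was held by 0.649% of all genes and not by RPN4. The Yap1 element TTACTAA began 374 bases before the start codon and was held by 11.8% of all genes, while TTAGTCA, held by 5.98%, was not found before RPN4. The heat shock element, written as GAA, 2 free bases, TTC, 2 free bases and GAA, was found at 348 and at 21 bases and was held by 1.48% of all genes. The 120 bases printed here, chrIV:417044-417163 on the minus strand, run from 455 to 336 bases before the start codon, with the matches of all 3 kinds in capitals.
RPN4 upstream: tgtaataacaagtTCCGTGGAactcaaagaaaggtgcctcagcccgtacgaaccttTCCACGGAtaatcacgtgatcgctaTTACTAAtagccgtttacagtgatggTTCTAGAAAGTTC

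The deposited values are log2 RPKM, that is, reads divided by the length of the gene and the size of the library, so a value is a share of a library and RNA per cell was not measured. The libraries held 2205293 to 32838988 reads in genes, and the 32 subunits together took 0.223 to 0.754% of them. The lowest count of any of the 33 genes in any library was 69 reads, for RPN13, and RPN4 had 115 to 4899 reads. Libraries that stand apart touch the results. In SynH -HTs the median of all features was 0.31 to 0.88 lower on the log2 scale in replicate 2 than in replicate 1 in each of the 6 strains, and NCYC361 in YPD lay above the other strains. A test on the values as deposited is therefore set beside the same test after the median of all tested features was subtracted from each library, called median-scaled here.

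The subunit genes were expressed at similar levels, with 3.64-fold between the highest and the lowest mean per length. Over the 18 groups of strain and medium the mean levels of the 32 subunits ran between 40.9 and 149 RPKM with a median of 80.9 RPKM, and all 32 were within 2-fold of that median. The highest were PRE4, a structural beta subunit, at 149 RPKM, PRE3, the caspase-like catalytic subunit, at 137 RPKM, and PUP3, a structural beta subunit, at 116 RPKM. The lowest were RPN8, which forms a dimer with Rpn11, at 47.5 RPKM, RPN11, the deubiquitinase of the lid, at 42.8 RPKM, and RPT2, an ATPase whose tail opens the gate of the core particle, at 40.9 RPKM. By role, the median level was 106 RPKM for the beta ring, 91.1 RPKM for the alpha ring, 77.6 RPKM for the base non-ATPases, 65.0 RPKM for the ATPases and 59.8 RPKM for the lid. RPN4 had the lowest mean of the 33 genes, 40.5 RPKM, and the widest spread over groups, an SD of 0.62 on the log2 scale, against 0.20 to 0.58 for the subunits.

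**Figure D1:**
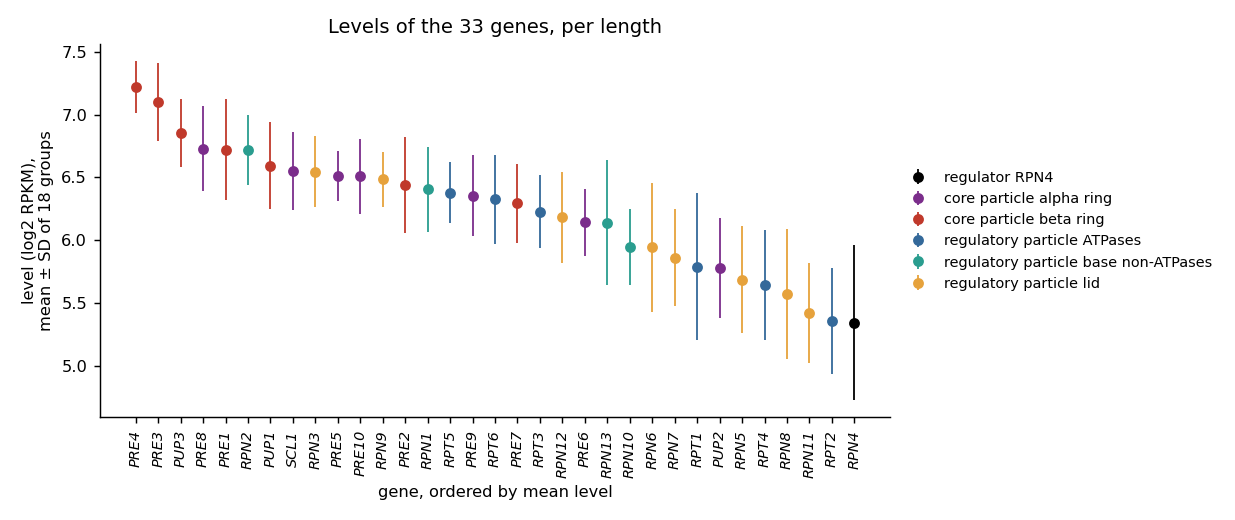
Mean level (log2 RPKM, per length) of each of the 33 genes, with error bars of 1 SD over the 18 groups of strain and medium, coloured by role. Beta subunits occupy the top of the order with PRE4 at 7.22, and RPN4, at 5.34, is last with the longest bar.

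RPN4 rose with the toxins, and its change in the mean over the 6 strains was the largest of the 33 genes. In K11 the change of RPN10 was larger, at log2 0.69 against 0.40 for RPN4. In Y7568 its level was 57.6 and 79.3 RPKM in SynH, 36.3 and 27.9 RPKM in SynH -HTs, and 30.4 and 35.8 RPKM in YPD. In YPS128 it was 41.4 and 68.3 RPKM in SynH, 27.4 and 17.3 RPKM in SynH -HTs, and 26.5 and 26.3 RPKM in YPD. In both of these resistant strains the SynH libraries lay above all libraries of the other media. UWO.S05.22-7 had the lowest single library in SynH, with 34.5 and 43.1 RPKM there, 28.2 and 16.4 RPKM in SynH -HTs and 27.6 and 36.5 RPKM in YPD. Its SynH and YPD libraries overlapped.

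NCYC3290 had 58.1 and 78.8 RPKM of RPN4 in SynH, 33.5 and 26.0 RPKM in SynH -HTs, and 30.2 and 33.9 RPKM in YPD. The sensitive strain K11 had 62.5 and 76.4 RPKM in SynH, 53.2 and 51.3 RPKM in SynH -HTs, and 39.8 and 36.9 RPKM in YPD, and its SynH -HTs level was the highest of the 6 strains. NCYC361, the other sensitive strain, had 65.9 and 61.9 RPKM in SynH, 39.2 and 24.2 RPKM in SynH -HTs, and 80.1 and 95.9 RPKM in YPD. In all 6 strains both SynH libraries exceeded both SynH -HTs libraries. Both SynH libraries exceeded both YPD libraries in Y7568, YPS128, NCYC3290 and K11, and NCYC361 was the strain in which both lay below.

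**Figure D2:**
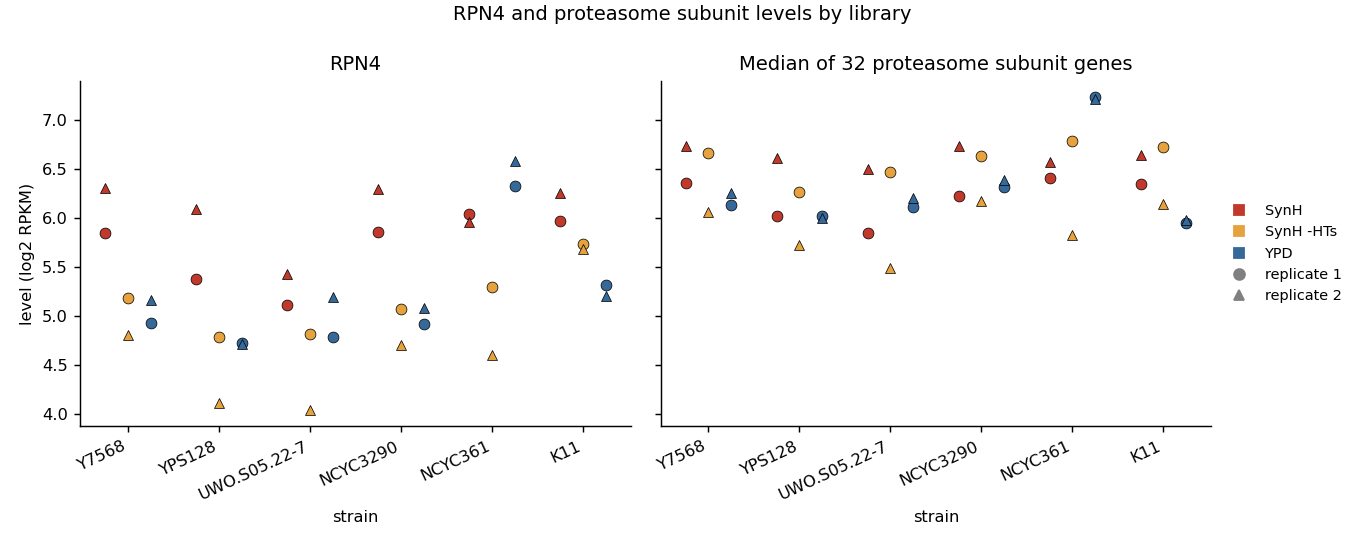
Level (log2 RPKM) of RPN4 on the left and the median of the 32 subunit genes on the right, for each strain, with SynH, SynH -HTs and YPD from left to right and a marker shape for each replicate. RPN4 is higher in SynH than in SynH -HTs in every strain, the subunit median of SynH -HTs differs between the replicates, and NCYC361 in YPD is the highest group for the subunits.

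Averaged over the 6 strains, RPN4 in SynH stood 1.97-fold above SynH -HTs, a log2 change of 0.98 ± 0.12 (SE) with an adjusted p of 8.63e-07 in limma, and higher in 6 of 6 strains. Of the 33 genes, 5 rose in this toxin comparison and 0 fell, where 19.1% of all 5927 tested features rose and 10.6% fell, so the share of the proteasome genes that rose was near the background in this fit. At an unadjusted p under 0.05, 8 of the 33 were higher and 0 lower, where 23.8% of all features were higher and 13.9% lower at that threshold. The genes that rose beside RPN4 were PRE3, PRE8, PRE4 and RPT1, and each was higher in 6 of 6 strains.

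PRE3 (YJL001W, chromosome X, 435163 to 435926) had 129 to 199 RPKM in SynH with a median of 156, against 84.2 to 160 RPKM in SynH -HTs with a median of 129, and these ranges overlapped. Its log2 change was 0.37 ± 0.10 with an adjusted p of 0.00495. The positions of this and the following genes are those of R64. PRE8 (YML092C, chromosome XIII, 85987 to 86739), an alpha subunit, had 91.6 to 132 RPKM in SynH with a median of 121, against 73.9 to 127 RPKM in SynH -HTs with a median of 97.8, and its log2 change was 0.22 ± 0.08. RPT1 (YKL145W, chromosome XI, 174213 to 175616), an ATPase, had 39.0 to 96.8 RPKM in SynH with a median of 65.1, against 21.6 to 88.2 RPKM in SynH -HTs with a median of 48.5. The fit gave RPT1 a log2 change of 0.42 ± 0.16 with an adjusted p of 0.0485. PRE4 (YFR050C, chromosome VI, 249066 to 249866) had a log2 change of 0.24 ± 0.09 with an adjusted p of 0.0458, close to the threshold of 0.05.

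The other catalytic genes did not pass. PUP1, the trypsin-like subunit, had a log2 change of 0.21 ± 0.11 with an adjusted p of 0.157, and PRE2, the chymotrypsin-like subunit, had 0.23 ± 0.11 with an adjusted p of 0.125. Over the 32 subunits the median log2 change was 0.22, against 0.09 over all tested features. The beta ring had 2 of 7 genes higher, the alpha ring 1 of 7, the ATPases 1 of 6, the base non-ATPases 0 of 4 and the lid 0 of 8. The median log2 change by role lay between 0.18 for the lid and 0.23 for the beta ring. Median-scaled, RPN4, RPT1 and PRE3 rose by log2 0.85 ± 0.07, 0.29 ± 0.06 and 0.24 ± 0.08, which makes 3 genes higher and 0 lower, where 16.4% of all features were higher and 20.1% lower. As deposited, the count of 5 was 3 without NCYC361, where 15.9% of all features were higher, and 2 without YPS128 SynH replicate 2, the deepest library, where 17.5% were higher. With each strain as the unit, 14 were higher and 0 lower as deposited, where 21.9% of all features were higher and 12.4% lower. Median-scaled, that unit gave 4 higher and 0 lower, where 15.4% were higher and 21.9% lower.

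As deposited, the direction of the subunits in this comparison turned with the replicate, as did that of all features, and that of RPN4 did not. The median log2 change of the subunits was -0.32 with replicate 1 alone and 0.74 with replicate 2 alone, against -0.30 and 0.53 for all features. Median-scaled, the subunit median was 0.05 and 0.10 and did not turn. In SynH -HTs, replicate 2 was lower than replicate 1 for 28 to 33 of the 33 genes in each strain, with a difference of the subunit median of -1.03 to -0.51 on the log2 scale. In SynH, replicate 2 was higher in the subunit median by 0.15 to 0.56, and in YPD the replicates differed by -0.01 to 0.11. Leaving SynH -HTs replicate 1 out gave 32 higher and 0 lower, where 53.4% of all features were higher and 9.18% lower. Leaving SynH -HTs replicate 2 out gave 1 higher and 5 lower, where 15.7% were higher and 34.8% lower. With replicate 1 alone, 1 of the 33 genes, RPN4, was higher and 17 were lower, where 6.51% of all features were higher and 36.2% lower. With replicate 2 alone, 31 were higher and 0 lower, where 42.3% were higher and 3.95% lower. Median-scaled, replicate 1 alone gave 4 higher and 5 lower, where 20.1% of all features were higher and 16.5% lower, and replicate 2 alone gave 6 higher and 0 lower, where 11.8% were higher and 19.4% lower. As deposited, RPN4 was higher by log2 0.55 ± 0.16 with replicate 1 alone (adjusted p = 0.0149) and by 1.40 ± 0.26 with replicate 2 alone (adjusted p = 0.00182). The adjusted p of RPN4 in this comparison reached 0.098 at its highest, when each medium and replicate number was reduced to 1 mean over the strains. Unlike the main fit, that fit does not take the strains of 1 replicate number as independent.

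**Figure D3:**
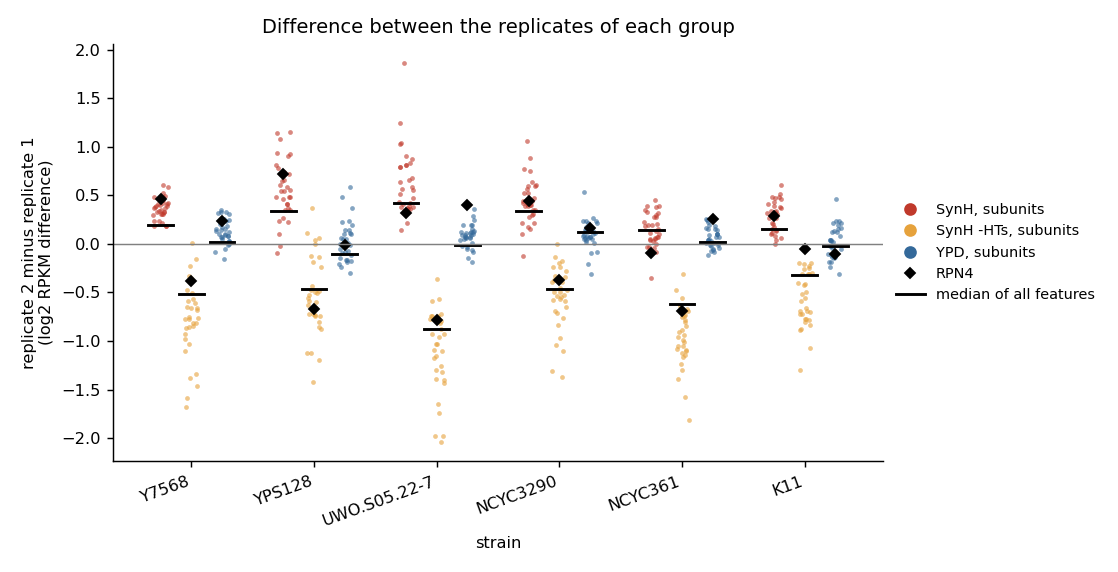
Replicate 2 minus replicate 1 (log2 RPKM difference) for each of the 32 subunits as dots and RPN4 as a diamond, by strain, with SynH, SynH -HTs and YPD from left to right, and the median of all features as a black bar. The SynH -HTs values of the 33 genes lie below 0 in all 6 strains but for 1 gene in Y7568 and 5 in YPS128, and the bars lie below 0 too.

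RPN4 was also set against the subunit median of its own library. The ratio of RPN4 to the subunit median was 0.477 to 0.777 in SynH with a median of 0.723, 0.319 to 0.727 in SynH -HTs with a median of 0.360, and 0.380 to 0.646 in YPD with a median of 0.453. The ratio was higher in both SynH libraries than in both SynH -HTs libraries in all 6 strains. K11 had the smallest gap, with ratios of 0.767 and 0.764 in SynH against 0.505 and 0.727 in SynH -HTs. UWO.S05.22-7 had the lowest ratios of any strain in SynH, 0.601 and 0.477, against 0.319 and 0.364 in SynH -HTs.

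**Figure D4:**
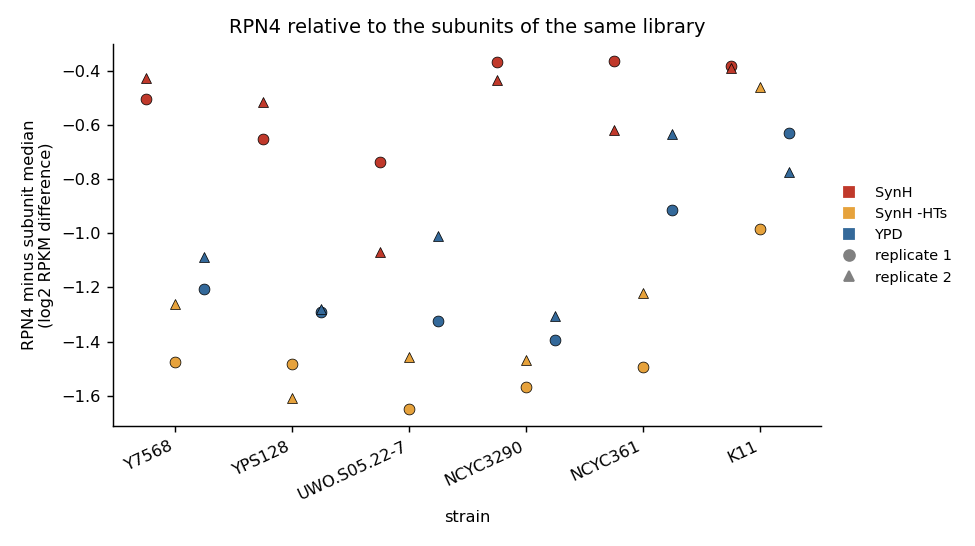
RPN4 minus the median of the 32 subunits of the same library (log2 RPKM difference), by strain, with SynH, SynH -HTs and YPD from left to right and a marker shape for each replicate. SynH lies between -1.07 and -0.36 and SynH -HTs between -1.65 and -0.46, with K11 at the upper end of SynH -HTs.

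Within single strains RPN4 was the gene of the 33 that passed in the toxin comparison as deposited. It rose by log2 1.29 ± 0.30 in YPS128 (adjusted p = 0.00645), 1.20 in NCYC3290 (adjusted p = 0.0144), 1.05 in NCYC361 (adjusted p = 0.0207) and 1.09 in Y7568 (adjusted p = 0.0249) in limma, with 2 libraries per group. The share of all features that rose was 5.47% in YPS128, 4.54% in NCYC3290, 8.87% in NCYC361 and 4.74% in Y7568, and the share that fell was 1.38%, 0.86%, 1.57% and 1.47% in the same order. In UWO.S05.22-7 its log2 change was 0.84 with an adjusted p of 0.161, and in K11 it was 0.40 with an adjusted p of 0.67. In these 2 strains 0 of the 33 passed in limma, where 2.48% of all features rose and 0.388% fell in UWO.S05.22-7 and 2.41% rose and 1.48% fell in K11. Median-scaled, 1 of the 33 was higher in UWO.S05.22-7 and 2 in K11, where 1.59% and 3.17% of all features were, and RPN4 was not among them. For a difference of the toxin response among the 6 strains, 0 of the 33 genes passed limma's F test, where 2.38% of all features passed. The F values ran from 0.04 for RPT4 to 1.17 for RPN4. The spread within groups that this test uses holds the replicate difference of SynH -HTs, which all 6 strains share. The count of 0 therefore does not show that the strains responded alike.

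In SynH against YPD, called complete hydrolysate here, RPN4, RPN10 and PRE1 rose as deposited, and most of the subunits rose when median-scaled. RPN4 was 1.55-fold higher, a log2 change of 0.63 ± 0.12 (SE) with an adjusted p of 0.000145 in limma, and higher in 5 of 6 strains. RPN10 (YHR200W, chromosome VIII, 499079 to 499885), a ubiquitin receptor, had 54.5 to 98.5 RPKM in SynH with a median of 71.8, against 38.8 to 85.1 RPKM in YPD with a median of 51.9, and rose by log2 0.37 ± 0.14 (adjusted p = 0.0305). PRE1 (YER012W, chromosome V, 177835 to 178431), a structural beta subunit, had 72.6 to 174 RPKM in SynH with a median of 126, against 62.6 to 193 RPKM in YPD with a median of 84.9, and rose by 0.41 ± 0.16 (adjusted p = 0.0412). For both genes the groups overlapped, and for PRE1 the highest YPD libraries were those of NCYC361.

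These 3 were the genes that rose among the 33, and 0 fell, where 14.4% of all features rose and 34.2% fell. At an unadjusted p under 0.05, 5 were higher and 0 lower, where 15.9% of all features were higher and 39.1% lower at that threshold. The catalytic genes had log2 changes of 0.19 ± 0.10 for PRE3, 0.18 ± 0.11 for PUP1 and -0.08 ± 0.11 for PRE2, and none of these passed. The median log2 change was 0.11 for the subunits and -0.23 for all features, a gap of 0.35. Median-scaled, 28 of the 33 were higher and 0 lower, where 26.0% of all features were higher and 24.0% lower. On that scale RPN4 rose by 0.88 ± 0.07, RPT6, an ATPase, by 0.58 ± 0.06, PRE1 by 0.66 ± 0.07, PUP1 by 0.42 ± 0.06 and PRE3 by 0.44 ± 0.08. By role, the genes higher on that scale were 7 of 7 of the beta ring, 6 of 7 of the alpha ring, 5 of 6 ATPases, 3 of 4 base non-ATPases and 6 of 8 of the lid. With each strain as the unit, none of the 33 passed as deposited (RPN4 adjusted p = 0.0589), where 5.43% of all features were higher and 19.7% lower, and 14 were higher when median-scaled, where 12.8% were higher and 12.1% lower. The count rests on the scaling and on the unit. As deposited, 12 were higher without NCYC361, where 17.7% of all features were higher, and 1 without YPS128 SynH replicate 2, where 14.0% were.

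**Figure D5:**
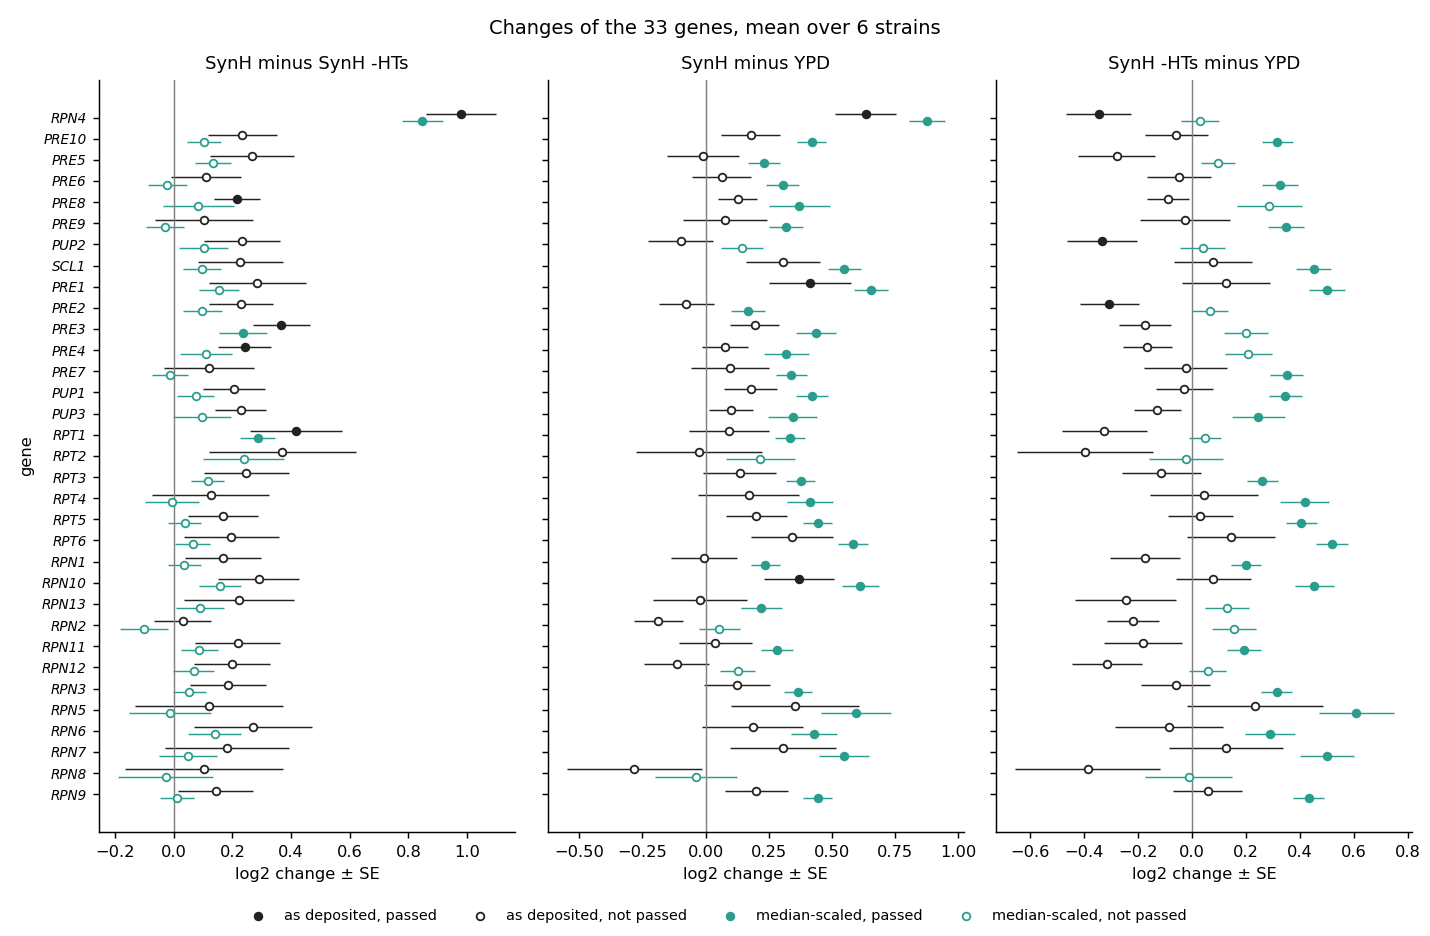
Log2 change of each of the 33 genes (mean over 6 strains, bars are 1 SE from limma) in SynH minus SynH -HTs, SynH minus YPD and SynH -HTs minus YPD, as deposited in black and median-scaled in green, with filled points for an adjusted p under 0.05. RPN4 stands to the right of the subunits in both SynH panels, and median scaling moves the subunits to the right in both comparisons with YPD.

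In NCYC361 as deposited, 13 of the 33 genes fell and 0 rose in SynH against YPD, near the 34.8% of all features that fell, while 8.67% rose. The median log2 change was -0.83 for the subunits and -0.76 for all features. RPN4 had a log2 change of -0.46 with an adjusted p of 0.204. The 3 with the smallest adjusted p were RPT1 at -1.69 ± 0.38 (adjusted p = 0.00143), PRE8 at -0.81 ± 0.19 (adjusted p = 0.00179) and PUP3 at -0.88 ± 0.21 (adjusted p = 0.00227). In K11, 4 rose as deposited, where 12.6% of all features rose and 9.38% fell, and these were PUP1 at 0.90 ± 0.26, RPN10 at 1.17 ± 0.34, PRE8 at 0.56 ± 0.19 and RPN4 at 0.85 ± 0.30. As deposited, RPN4 alone rose in NCYC3290 by 1.08, in Y7568 by 1.03 and in YPS128 by 1.01, where 6.75%, 5.97% and 8.13% of all features rose and 5.6%, 6.61% and 5.87% fell in the same order. In UWO.S05.22-7 none of the 33 passed in limma as deposited, where 3.83% of all features rose and 10.2% fell, and RPN4 had a log2 change of 0.28 ± 0.30.

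These counts within strains rest on the scaling. Median-scaled, 4 of the 33 were higher and 1 lower in NCYC361, where 22.3% of all features were higher and 11.7% lower. On that scale 18 were higher in UWO.S05.22-7, where 8.39% of all features were higher, and 14 in Y7568, where 8.62% were. The count was 12 in K11 (14.1% of all features), 10 in YPS128 (10.8%) and 3 in NCYC3290 (8.57%), and 0 were lower in these 5 strains.

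The level of NCYC361 in YPD set that strain apart. Its subunit median was 149 and 151 RPKM in YPD, against 61.5 to 83.8 RPKM in the 10 YPD libraries of the other strains. All 33 genes were higher in both NCYC361 libraries than in each of those 10, and so were 43.8% of all features. RPT1, for example, had 207 and 212 RPKM in NCYC361, against 38.9 to 54.7 RPKM in the others. Median-scaled, the count was 17 of 33, against 19.9% of all features. NCYC361 minus the other strains gave 1.12 for the subunit median, 1.45 for RPN4 and 0.61 for the median of all features on the log2 scale. The subunit median gave 0.05 in SynH and 0.08 in SynH -HTs.

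The strains differed in the complete hydrolysate response for 5 of the 33 genes, where 26.1% of all features passed limma's F test. These were PRE8 (adjusted p = 0.00537), PUP3 (0.00824), RPT1 (0.00825), RPN4 (0.0305) and PUP2, an alpha subunit (0.0335), and each was lowest in NCYC361. Median-scaled, 1 of the 33 passed, where 27.7% of all features did, and under quantile normalization 16 passed, where 31.9% did, so most of these calls rest on the scaling. Without NCYC361, 0 of the 33 passed, where 6.78% of all features did. The mean level over the 3 media differed among strains for 15 of the 33, where 68.8% of all features passed, and the smallest adjusted p belonged to PRE8, RPN4, PUP1, PRE2 and RPN13. This count was 30 when median-scaled (78.7% of all features), 25 under quantile normalization (76.8%) and 6 without NCYC361 (60.9%).

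RPN13, a ubiquitin receptor of the base, differed among strains more than any other subunit when set against the subunit median of the same library. In K11 it lay 0.11 to 0.75 above that median on the log2 scale in all 6 libraries. The lowest values were those of Y7568, -1.06 to -0.22, and UWO.S05.22-7, -0.80 to -0.38, and the 3 remaining strains lay between -0.60 and 0.16. The range of its strain means was 1.09, and the next subunit had 0.59. In SynH, RPN13 had 104 and 108 RPKM in K11, and 38.8 to 92.1 RPKM in the other 5 strains.

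In SynH -HTs against YPD, 3 of the 33 genes fell and 0 rose, where 38.4% of all features fell and 6.78% rose. RPN4 had 16.4 to 53.2 RPKM in SynH -HTs with a median of 28.0, against 26.3 to 95.9 RPKM in YPD with a median of 34.9, and fell by 0.34 ± 0.12 on the log2 scale (adjusted p = 0.0243). PRE2 had a log2 change of -0.31 ± 0.11 (adjusted p = 0.0268) and PUP2 of -0.33 ± 0.13 (adjusted p = 0.0396), PUP1 had -0.03 ± 0.11 and PRE3 -0.17 ± 0.10. The subunit median was -0.09, against -0.31 for all features. Median-scaled, 20 of the 33 were higher and 0 lower, where 24.6% of all features were higher and 16.3% lower, and RPN4, PRE2 and PUP2 had 0.03, 0.07 and 0.04 and did not pass. Without NCYC361, 0 of the 33 passed in either direction as deposited, where 6.58% of all features were higher and 21.1% lower. With SynH -HTs replicate 1 left out 31 were lower, where 68.1% of all features were lower, whereas with replicate 2 left out 13 were higher, where 13.8% were higher. With replicate number 1 alone, 7 were higher and 0 lower, where 4.42% of all features were higher and 6.19% lower, and with number 2 alone 0 were higher and 16 lower, where 3.14% were higher and 47.9% lower. Median-scaled, number 1 alone gave 16 higher and 0 lower, where 7.95% of all features were higher and 7.54% lower, and number 2 alone gave 7 higher and 1 lower, where 18.4% were higher and 12.1% lower. The comparisons share libraries, since SynH serves in those with SynH -HTs and with YPD, and their values stand side by side without a test between them.

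Subunits with and without the Rpn4 element are set side by side here with no test. In the toxin comparison the median log2 change was 0.22 for the 27 genes with the element and 0.22 for the 5 without it. In complete hydrolysate the medians were 0.12 with the element and -0.01 without it, or 0.37 and 0.23 when median-scaled, and RPN10, which has no exact match, was among the genes that rose. In SynH -HTs against YPD the medians were -0.08 with the element and -0.25 without it as deposited, and 0.29 and 0.13 when median-scaled, so both signs turned with the scaling. Median-scaled medians in the toxin comparison were 0.08 with the element and 0.09 without it.

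Genes that act with the proteasome were read from 4 lists, with the same shares of all features as background. The regulators of RPN4 and the factors that ubiquitylate it gave 1 of 7 higher in the toxin comparison, and this was PDR3, an activator of drug resistance genes, at log2 0.73 ± 0.11 (adjusted p = 1.55e-05). YAP1 had 0.39 ± 0.16 (adjusted p = 0.0618), HSF1 0.25 ± 0.23 and PDR1 -0.02 ± 0.15, and these did not pass. In complete hydrolysate PDR1 fell by 1.02 ± 0.15 (adjusted p = 6.43e-06) and was the 1 of 7 that changed, while PDR3 had 0.24 ± 0.11. In SynH -HTs against YPD 5 of 7 fell, PDR1 with an adjusted p of 1.37e-05, PDR3 by log2 0.50, HSF1 by 0.66, YAP1 by 0.41 and UBR2, the ubiquitin ligase of Rpn4, by 0.45. Median-scaled, 2 of 7 were higher with the toxins (PDR3 and YAP1), 4 were higher and 1 lower in complete hydrolysate, and 2 were higher and 1 lower in SynH -HTs against YPD, and PDR1 fell in both comparisons with YPD.

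Of 20 genes that tag or deliver substrates, 3 rose and 1 fell in the toxin comparison. UBI4, the polyubiquitin gene, rose by log2 1.67 ± 0.17 (adjusted p = 3.36e-08) in 6 of 6 strains, but it shares ubiquitin sequence with other genes, so its reads are uncertain. DDI1, a shuttle protein for ubiquitylated substrates, rose by 0.65 ± 0.13 and HRD1, a ubiquitin ligase of the endoplasmic reticulum, by 0.32 ± 0.09, and SSM4, another such ligase, fell by 0.20 ± 0.07. In complete hydrolysate 2 rose and 6 fell, among them RAD23, a shuttle protein, which fell by 0.97 ± 0.18. In SynH -HTs against YPD 0 rose and 8 fell, RAD23 by 0.89 and UBC5, a ubiquitin-conjugating enzyme, by 0.70. Median-scaled, 3 were higher and 1 lower with the toxins, 8 and 2 in complete hydrolysate and 6 and 2 in SynH -HTs against YPD. On that scale UBI4 and DDI1 passed with the toxins and RAD23 in both comparisons with YPD, whereas HRD1, SSM4 and UBC5 did not pass.

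Of the 9 assembly chaperones, NAS6 and HSM3, which act on the base, rose in the toxin comparison by log2 0.26 ± 0.08 and 0.39 ± 0.13. UMP1, which guides core particle assembly, rose in complete hydrolysate by 0.25 ± 0.08, and 4 of the 9 fell in SynH -HTs against YPD. Of the 6 associated factors, BLM10, an alternative cap of the core particle, fell by 0.50 ± 0.10 in complete hydrolysate, and none passed in the toxin comparison. Median-scaled, HSM3 passed with the toxins, UMP1 and BLM10 passed in complete hydrolysate in the same directions, and NAS6 did not pass. On that scale BLM10 also fell with the toxins, by 0.38. GGTGGCAAA was found before 0 of the 9 assembly chaperones, 1 of the 6 associated factors, 3 of the 20 delivery genes and 1 of the 7 regulators.

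For resistance, each strain counted as 1 replicate, so that Y7568, YPS128 and UWO.S05.22-7 were set against NCYC361 and K11. Their RPN4 level in SynH averaged 5.69 in the resistant strains and 6.05 in the sensitive strains on the log2 scale, a difference of -0.36 ± 0.29, equal to the difference of -0.36 in the median of all features. The log2 change of RPN4 in complete hydrolysate was 0.78 in the resistant strains and 0.20 in the sensitive strains, a difference of 0.58 ± 0.48. The sensitive strains lay apart, with 0.85 in K11 and -0.46 in NCYC361. The resistant strains had 1.03 in Y7568, 1.01 in YPS128 and 0.28 in UWO.S05.22-7. In limma 0 of the 33 genes passed for the level in SynH (smallest adjusted p = 0.429) and 0 for the change (smallest adjusted p = 0.998). At an unadjusted p under 0.05 the count was 0 in both, where 13.7% of all features were under it for the level and 3.83% for the change. Among all features 0.0% passed for the level, and 0.0169% passed for the change. With K11 left out, NCYC361 was the only sensitive strain and was assumed to vary like the resistant strains, so no count is given. Its change is taken from its YPD libraries, in which all 33 genes and 43.8% of all features lay above the other strains.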

How the data were processed

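RNA-seq libraries of 6 strains in 3 media, 2 per group, were used as deposited. Per the submitters' processing notes, Trimmomatic 0.30, Bowtie2 and HTSeq 0.6.0 were used. The sources used here do not give the build, the annotation or the use of strand. The authors deposited log2 RPKM values for 6717 features, and 6 rows that name no gene were left out. From the values, 1 read had been added before the log2, which understates changes of low genes. Reads were recovered with coding lengths of RefSeq R64 for 6025 features, 99.8% of the values being whole within 0.05 reads. The 33 genes gave whole reads in every library, and 0 of them overlaps another coding gene. The deepest library, YPS128 in SynH replicate 2, held 32838988 reads and the next 8047447. Reads carry no molecular identifiers, so depth covers counting error only. The NCYC361 libraries titled SynHv were taken as SynH from their medium label.

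The deposited log2 values were fitted in limma 3.58.1 (R 4.3.3) with 18 group means, a variance trend and no further pseudocount. The fit took the 5927 features whose mean reached 1 RPKM, with Benjamini-Hochberg adjustment over all of them and a threshold of 0.05. Standard errors reflect libraries within strains and take them as independent, although SynH -HTs libraries of 1 replicate number deviated together over the strains. Levels set side by side are per length. Responses were averaged over strains with equal weight, tested within strains, and compared among strains by F tests. The steps were tested on simulated data with independent libraries, which does not cover deviations shared by libraries of 1 medium and replicate number. Median scaling, quantile normalization, filters, a further pseudocount of 1 RPKM, no trend, a replicate block, strains as the unit, means over strains and omissions were tried. Median scaling within strains, single replicate numbers and omission of NCYC361 or of the deepest library were chosen after seeing the data. The genes and lists were chosen with earlier results of these data known. All 33 may be named. RPN4, PRE3, PUP1 and PRE2 are named in each response, beside up to 5 genes per direction with the smallest adjusted p, 3 per direction within a strain and 4 per related list. RPT6 in the median-scaled values, RPN13 against the subunit median, and UBR2 were chosen after their values were seen.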

Additional observations from a re-analysis of the deposited data

Results flagged for a closer look

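The complete hydrolysate response (SynH minus YPD) differed among the 6 strains, by limma's F test, for 5 of the 33 genes, where 26.1% of all features passed. Each of the 5 had its lowest change in NCYC361. PRE8 ran from -0.81 in NCYC361 to 0.56 in K11 (adjusted p = 0.00537). PUP3 ran from -0.88 in NCYC361 to 0.52 in K11 (adjusted p = 0.00824). RPT1 ran from -1.69 in NCYC361 to 1.05 in K11 (adjusted p = 0.00825), which is the widest range of the 5. RPN4 ran from -0.46 in NCYC361 to 1.08 in NCYC3290 (adjusted p = 0.0305). PUP2 ran from -1.26 in NCYC361 to 0.57 in K11 (adjusted p = 0.0335). The level of NCYC361 in YPD moved with these results, and its part in them was not tested beyond leaving that strain out. Then 0 of the 33 passed, where 6.78% of all features did. Median-scaled, 1 of the 33 passed, where 27.7% did.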

How the results depend on the processing

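RPN4 was higher with the toxins under all 25 alternatives run, by log2 0.55 to 1.40 with adjusted p up to 0.098, and passed in 24. In SynH against YPD it was higher under all 25, by 0.46 to 0.97 with adjusted p up to 0.172, and passed in 22. In SynH -HTs against YPD it passed in 7 of 24, with adjusted p up to 0.959. The subunit median minus that of all features was positive in all alternatives of both comparisons with YPD (0.22 to 0.43 for SynH, 0.08 to 0.31 for SynH -HTs) and ran from -0.02 to 0.21 in the toxin comparison.

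The toxin count of 5 higher became 3 under quantile normalization (17.3% of all features higher), median scaling (16.4%), no filter (16.6%) or without NCYC361 (15.9%). It became 2 without a variance trend (19.2%), 14 with strains as the unit (21.9%) and 0 with means over strains (2.97%). With replicate number 1 alone it was 1, and 17 were lower (6.51% higher and 36.2% lower), and with number 2 alone it was 31 (42.3%). The count of 3 lower in SynH -HTs against YPD became 8 higher and 1 lower under quantile normalization (20.2% and 18.2% of all features). Median-scaled it became 20 higher and 0 lower (24.6% and 16.3%). It was 0 with strains as the unit (1.01% higher and 6.83% lower), means over strains (1.1% and 2.56%) or without NCYC361 (6.58% and 21.1%). Number 1 alone gave 7 higher and 0 lower (4.42% and 6.19%), and number 2 alone gave 16 lower (47.9%). The count of 3 higher in SynH against YPD became 15 under quantile normalization (24.6% of all features higher), 28 when median-scaled (26.0%) and 12 without NCYC361 (17.7%). It was 0 with strains as the unit (5.43%), means over strains (4.18%) or number 2 alone (6.23%). Number 1 alone gave 1 higher and 1 lower (7.44% higher and 38.7% lower). Without 1 medium and replicate number, the toxin count ran from 1 to 32 higher (10.8 to 53.4% of all features) and 0 to 5 lower (5.92 to 34.8%). SynH -HTs against YPD ran from 0 to 13 higher (3.95 to 13.8%) and 0 to 31 lower (17 to 68.1%). SynH against YPD ran from 1 to 5 higher (9.62 to 13.3%) and 0 to 1 lower (18.5 to 35.1%). The deepest library left out gave 2 higher for the toxins (17.5%) and 1 for SynH against YPD (14.0%).

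When median-scaled, number 1 alone gave 4 higher and 5 lower for the toxins (20.1% and 16.5% of all features). Number 2 alone gave 6 higher and 0 lower for the toxins (11.8% and 19.4%). It gave 7 higher and 1 lower for SynH -HTs against YPD (18.4% and 12.1%), and 15 higher for SynH against YPD (11.4%). With strains as the unit, 6 were higher for SynH -HTs against YPD (4.74% of all features) and 14 for SynH against YPD (12.8%). Omissions gave 2 to 10 higher and 0 to 1 lower for the toxins (12.2 to 26.3% of all features higher, 11.8 to 31% lower). For SynH -HTs against YPD they gave 0 to 1 lower (8.39 to 24.1%).

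Within strains, quantile normalization gave 1 higher in K11 and 1 in UWO.S05.22-7 for the toxins. For SynH against YPD it gave 14 in K11, 3 in Y7568, 2 in YPS128 and 3 in UWO.S05.22-7. No share of all features is given for these counts, so they cannot be set against the background. Median scaling gave 2 higher in K11 (3.17% of all features) and 1 in UWO.S05.22-7 (1.59%) for the toxins. For SynH against YPD it gave 4 higher and 1 lower in NCYC361 (22.3% and 11.7%), 12 higher in K11 (14.1%) and 3 in NCYC3290 (8.57%). It gave 14 higher in Y7568 (8.62%), 10 in YPS128 (10.8%) and 18 in UWO.S05.22-7 (8.39%). Leaving out 1 library leaves a lone library that is assumed to vary like other groups, so counts from those fits are not given. Strain differences in the SynH against YPD response were 16 under quantile normalization, 1 when median-scaled, 0 without NCYC361 and 0 to 1 without a medium and replicate number. Those in the mean level were 25, 30, 6 and 2 to 29 in the same order. Resistant against sensitive strains gave 23 without K11.

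Signs turned for RPN4 (0.029), PUP1 (0.35), PRE2 (0.068) and PUP2 (0.040) in SynH -HTs against YPD and PRE2 (0.17) in SynH against YPD when median-scaled, for RPT1 with the toxins without SynH -HTs replicate 2 (-0.000241, against 0.835 without replicate 1), and for PRE4 (-0.059) and RPT1 (-0.23) with number 1 alone. The cause was not tested. Of the other values for single genes, 379 kept their side of the threshold, 114 lost the call and 28 gained it. Of the 379, 30 turned sign without passing in either fit, among them PRE3 in SynH -HTs against YPD, at 0.20 when median-scaled. SynH and SynH -HTs libraries of 1 replicate number deviated in opposite directions (r from -0.55 to -0.01 over 36 pairs of groups). Whether the numbers pair libraries of these media was not tested, since the sign of r cannot decide it. Within SynH -HTs, libraries of 1 number deviated together over the strains (0.43 to 0.72 over 15 pairs), and within SynH 8 of 15 pairs exceeded 0.1. The 12 libraries of a medium are thus not fully independent, although the main fit takes them as such. A replicate block gave 5 higher and 0 lower for the toxins (19.1% and 11% of all features). It gave 0 and 3 for SynH -HTs against YPD (6.92% and 39.1%), and 3 and 0 for SynH against YPD (14.6% and 34.9%). The block was 1 term common to all media, so it cannot take up replicate differences of opposite sign in SynH and SynH -HTs.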
